A study of Homo sapiens with 8 samples.

Results

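The comparison described here is between 2 times within cells under the same treatment: LN229-TAZ(4SA) cells held without glucose in AF at 1 µM for 7 h, set against the same cells after 1 h. LN229 is an established human glioblastoma line, and TAZ(4SA) names a form of TAZ, the Hippo pathway co-activator encoded by WWTR1, that these cells carry in every group. The members are the 4 of 8 libraries whose column headings give AF without glucose, 2 libraries at 1 h and 2 at 7 h, called A and B below without order. The other 4 libraries are regular culture without AF, 2 at 1 h and 2 at 7 h, and serve as the baseline of the first-hour change and to show what the same 6 hours did in untreated cells. AF was not given without glucose withdrawal, nor glucose withdrawn without AF, so the 2 agents cannot be told apart. The labels do not spell AF out, and the series title speaks of blocking thioredoxin reductase 1, the selenoprotein encoded by TXNRD1. No label says that the libraries of a group came from separate cultures, so the spread that the p-values measure is that of these libraries and may be only technical.

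Several stress programmes with different kinetics meet in such cells. Heat shock factor drives chaperone genes when proteins misfold, NRF2 drives antioxidant and thiol genes when cysteines of its inhibitor KEAP1 are modified, and ATF4 drives amino acid and redox genes when translation initiation is slowed by phosphorylation of eIF2. Immediate early genes such as FOS and EGR1 switch on and decay within the hour in many settings because their transcripts are short-lived, whereas transcripts of mitotic genes follow the cell cycle. Disulfidptosis is a form of death described in glucose-starved cells that import much cystine through SLC7A11, in which disulfide bonds form in actin cytoskeleton proteins.

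Reads in the 13036 listed genes numbered 40147363 and 33740886 in treated cells at 1 h, 27731776 and 37032500 at 7 h, and 31645935 to 45811965 in regular culture. Levels are CPM, read counts scaled to library size by the authors, and changes are differences of log2 CPM with their standard error (SE) from limma, a linear model fitted over all 13028 genes that passed a low filter. A gene is called when its Benjamini-Hochberg adjusted p is under 0.05. The 20 most abundant genes took 7.70% and 7.76% of reads at 1 h and 16.0% and 15.9% at 7 h in treated cells. The median gene changed by -0.03 from 1 h to 7 h on the deposited scale, by -0.40 if each library was scaled to its own total and by -0.01 after quantile normalization, so a rise or fall is relative to the other genes. The library size behind the deposited values was 1.09 times the listed reads at 1 h and 0.838 and 0.846 times at 7 h in treated cells. Of the glioblastoma mesenchymal markers 7 of 8 were listed, at a summed 13406 to 18949 CPM over all libraries, whereas the astrocyte marker GFAP lay between 0.438 and 1.34 CPM and no erythroid marker was listed. GFAP is often low or absent in long-passaged glioma lines, and the other astrocyte markers AQP4, ALDH1L1 and SLC1A3 were not among the listed genes.

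Most of the transcriptome moved between 1 h and 7 h of treatment. Of 13028 genes tested, 10114 were called (77.6%), 4809 higher at 7 h (36.9%) and 5305 lower (40.7%). Scaling each library to its own total turned this near-even division into 2248 higher and 8565 lower, so the share of higher genes among those called was 47.5% on the deposited scale and 20.8% on the other. Changes of at least 2-fold were fewer, 930 genes higher (7.14%) and 1135 lower (8.71%). At 4-fold or more the balance tipped the other way, with 206 genes higher (1.58%) and 89 lower (0.683%). The shares called on the deposited scale, 36.9% higher and 40.7% lower, are the background for the gene list counts below. In bulk RNA, fewer cells with a transcript and less of it per cell cannot be told apart.

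To separate responses that kept building from those that peaked early, each gene's later change (7 h minus 1 h within treated cells) was set beside its first-hour change (treated minus regular culture, both at 1 h). In the first hour 2303 genes were called higher (17.7%) and 2694 lower (20.7%), but only 143 were at least 2-fold higher (1.1%) and 265 at least 2-fold lower (2.03%). Genes at least 2-fold up in both steps, here called building, numbered 51 (0.391%). Another 72 genes rose at least 2-fold by 1 h and then moved by less than 2-fold, here called held (0.553%). Only 20 rose by 1 h and then fell at least 2-fold, the peak and fade class (0.154%). The largest classes had moved by no more than 0.5 on the log2 scale at 1 h: 643 genes of late rise (4.94%) and 963 of late fall (7.39%). Of the 265 genes at least 2-fold down at 1 h, 79 then rose at least 2-fold, called rebound (0.606%), 17 fell at least 2-fold again, called continued fall (0.13%), and the others did neither. Both steps use the treated 1 h libraries, so these counts describe the genes and carry no test. No library was taken before 1 h, so down at 1 h means below regular culture at 1 h. That level often fell later. In regular culture 60 of the 79 rebound genes were called lower from 1 h to 7 h and 9 higher. Of the 17 continued fall genes 12 were called lower there and 1 higher. Of the 20 peak and fade genes 12 were called higher there and 3 lower. The shares over all genes were 30.8% lower and 30.7% higher. The choice of these classes also uses the regular culture libraries at 1 h. It favours later falls in regular culture among rebound and continued fall genes, and later rises among peak and fade genes.

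**Figure D1:**
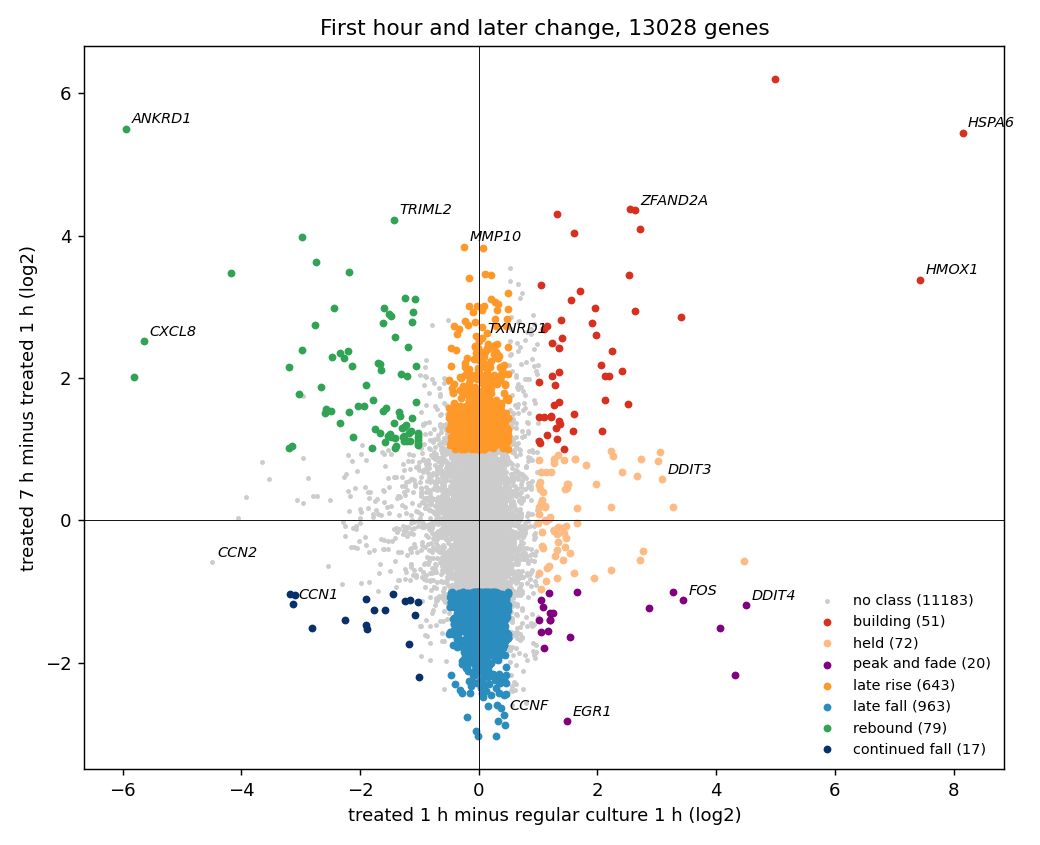
Each point is 1 of 13028 genes, placed by its first-hour change (treated minus regular culture at 1 h, log2, x axis) and its later change (treated 7 h minus 1 h, log2, y axis), coloured by class with the number of genes in brackets. Most genes with a large later change sit near 0 on the x axis, in the late rise (643) and late fall (963) classes, and the highest point is the pseudogene HSPA7.

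The genes that kept building included chaperone genes and HMOX1. HSPA6, which encodes an HSP70 chaperone that is nearly silent without stress, stood at 291 and 256 CPM in the 2 treated libraries at 1 h and at 11991 and 11791 CPM at 7 h, against 0.774 to 1.77 CPM in regular culture. All 4 treated libraries lay above all 4 of regular culture, and the times did not overlap. Its mean rose from 273 ± 24.2 to 11891 ± 141 CPM (SD, n = 2), a log2 change of 5.44 ± 0.09 (SE) on top of 8.15 ± 0.09 in the first hour. HMOX1, heme oxygenase, which breaks down heme, stood at 2069 and 1981 CPM at 1 h and 21279 and 20869 CPM at 7 h. Its later change was 3.38 ± 0.05, against a first-hour change of 7.43 ± 0.05, so the larger step was in the first hour. ZFAND2A, an arsenite-inducible zinc finger protein that associates with the proteasome, showed the reverse order, 2.64 ± 0.05 in the first hour and then 4.36 ± 0.05, from 108 and 96.8 to 2096 and 2102 CPM. Reads of HSPA6 may be shared with its near-identical pseudogene HSPA7, whose later change of 6.20 ± 0.27 was the largest of any gene tested, from 3.74 and 4.14 CPM to 277 and 311 CPM.

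Chaperones and their partners rose together. Of 25 listed heat shock proteins and co-chaperones, 25 were called higher at 7 h than at 1 h and 24 at least 2-fold, with a median change of 2.69 against -0.03 over all genes, and 7 belonged to the building class; scaled to the total, 24 were called higher and 1 lower. DNAJB1, an HSP40 that hands clients to HSP70, went from 2337 and 2204 to 17883 and 16910.2 CPM. BAG3, which couples HSP70 to selective autophagy, went from 469.8 and 442 to 5036 and 4862 CPM, a log2 change of 3.44 ± 0.03. The constitutive HSP70 gene HSPA8 rose from 4334 and 4374 to 10669.8 and 10672 CPM, and HSPH1, an HSP110 nucleotide exchange factor, rose 9.33-fold; both were picked out after their values were seen. CRYAB, the small heat shock protein alpha-B crystallin, had moved by only 0.53 ± 0.10 at 1 h and then rose from 7.35 and 7.22 to 85 and 86.3 CPM.

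The heat shock element, the binding sequence of heat shock factor, is shown in HSPA6 because the later rise of that gene was second only to that of ANKRD1 among protein-coding genes. The 250 bases before its RefSeq start are chr1:161524290-161524539, plus strand, in GRCh38.p14, and capitals mark first a match to the antioxidant response element core and then one to the heat shock element, both read on the opposite strand.
HSPA6: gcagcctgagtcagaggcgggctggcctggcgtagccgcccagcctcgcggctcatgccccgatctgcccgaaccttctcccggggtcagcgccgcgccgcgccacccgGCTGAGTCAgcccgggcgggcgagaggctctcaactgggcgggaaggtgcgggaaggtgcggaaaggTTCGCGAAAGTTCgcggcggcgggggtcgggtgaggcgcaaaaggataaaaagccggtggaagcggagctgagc
A match to this element, a GAA, TTC and GAA in a row and each 2 bases apart, on either strand and within 250 bases before to 50 after the start, was found in 31 of 10451 promoters of tested genes (0.297%), in 3 of 39 in the building class (7.69%), in 5 of 22 on the heat shock list (22.7%) and in 3 of 488 in the late rise class (0.615%). A match is a description of the letters, not a site shown to be bound.

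Genes of other groups kept building as well. TRIB3, a pseudokinase that damps ATF4 signalling, went from 150.0 and 146 to 1023 and 998 CPM, and SESN2, a leucine-sensing brake on mTORC1, from 117 and 112 to 371 and 370.1 CPM. CTH, which makes cysteine from cystathionine, went from 8.47 and 8.23 to 50.3 and 49.1 CPM, and GDF15, a stress-induced cytokine picked out after its value was seen, rose 4.56-fold. PPP1R3C, a subunit that brings protein phosphatase 1 to glycogen, rose 17.2-fold, from 10.6 and 9.70 to 180.0 and 168 CPM. IER5 rose 5.32-fold and DUSP2, a nuclear MAP kinase phosphatase, 4.08-fold, although both belong to the immediate early list. Among low genes, the piRNA-trimming nuclease gene PNLDC1 had 73 reads in all at 1 h and 1034 at 7 h, a read ratio of 20.9 (95% interval 16.5 to 26.9, counting error only). RBFOX3, which encodes the neuronal splicing factor NeuN, had 111 and 1484 reads, a ratio of 19.7 (16.3 to 24.1). NECAB2, a neuronal calcium-binding protein, had 73 and 870 reads, a ratio of 17.6 (13.8 to 22.6), and the secreted protease gene HTRA3 went from 4.11 and 3.16 to 25.9 and 26.9 CPM.

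**Figure D2:**
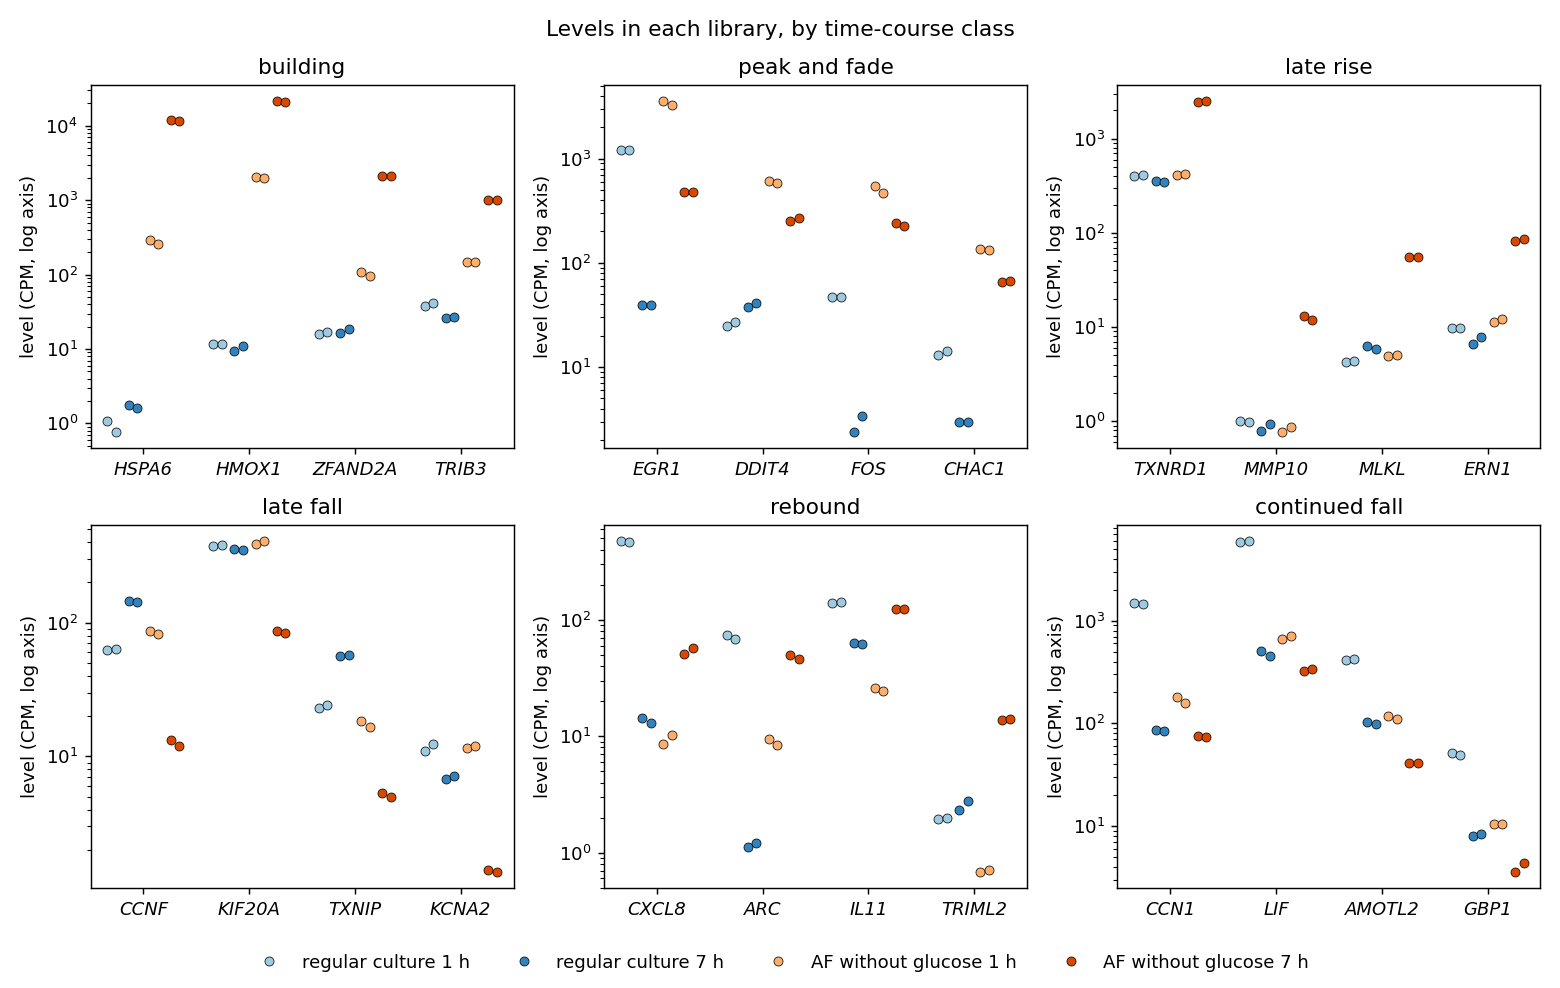
Levels (CPM, log axis) of 4 genes from each of 6 classes in all 8 libraries, 2 points per group, in regular culture (blue) and AF without glucose (orange) at 1 h (light) and 7 h (dark). The 7 h treated libraries of HSPA6 (11991 and 11791 CPM) lie far above those at 1 h, those of FOS (244 and 225 CPM) lie between the 1 h treated and the regular culture libraries, and those of CCNF (13.3 and 12 CPM) lie below all others.

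Antioxidant and thiol genes made most of their rise after the first hour: the median change of 39 listed NRF2 targets was 0.14 in the first hour and 0.93 later. TXNRD1, the cytosolic thioredoxin reductase, stood at 411 and 426 CPM in treated cells at 1 h, with a first-hour change of 0.05 ± 0.03 (adjusted p = 0.212, limma), and at 2458 and 2488 CPM at 7 h. The later change was 2.56 ± 0.03, a 5.91-fold rise (adjusted p = 3.1e-22, limma), and the times did not overlap. Over the NRF2 list, 35 were called higher and 1 lower, 17 of them at least 2-fold higher, and 10 belonged to the late rise class against 2 in the building class; scaled to the total, 30 were called higher and 5 lower. SRXN1, sulfiredoxin, which repairs over-oxidized peroxiredoxins, went from 173 and 179.6 to 1265 and 1290.2 CPM, and GCLM, the modifier subunit of the first enzyme of glutathione synthesis, from 103 and 94.9 to 345 and 366 CPM. SLC7A11, the cystine importer, rose 2.59-fold, from 164 and 157 to 389 and 444 CPM, and SLC3A2, its partner chain, 2.86-fold. ABCC2, an exporter of glutathione conjugates, rose from 1.32 and 0.763 to 6.28 and 6.41 CPM, while CBR3, a carbonyl reductase, was the 1 list member that fell, by 0.26 ± 0.06, which was no longer called after quantile normalization (adjusted p = 0.109). OSGIN1, an oxidative stress-induced growth inhibitor, had done most of its rise by 1 h (2.27 ± 0.05) and added 0.91 ± 0.05.

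The wider thioredoxin and glutathione list had 24 of 32 members called higher and 7 lower, with a median of 0.51, and 16 higher and 11 lower if scaled to the total. On the lower side, beside TXNIP, TXNRD3, the testis-enriched thioredoxin-glutathione reductase, changed by -0.81 ± 0.14 and GPX8, a peroxidase of the ER, by -0.33 ± 0.04. NADPH feeds both systems. Of 14 genes of the pentose phosphate pathway and NADPH supply, 8 were called higher and 3 lower, against 36.9% and 40.7% of all genes, or 8 and 6 if scaled to the total. PGD, the second dehydrogenase of the pathway, rose from 145 and 153 to 403 and 408 CPM, ME1, malic enzyme, rose 3.55-fold, and NNT, the mitochondrial transhydrogenase, fell by 0.61 ± 0.04.

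The antioxidant response element core is shown in TXNRD1 and GCLM. Both are NRF2 targets that rose at least 2-fold and hold a match in the 250 bases before the start. The runs are chr12:104215529-104215778, plus strand, and chr1:93909431-93909680, minus strand (RefSeq, GRCh38.p14), and capitals mark the match (on the opposite strand in GCLM).
TXNRD1: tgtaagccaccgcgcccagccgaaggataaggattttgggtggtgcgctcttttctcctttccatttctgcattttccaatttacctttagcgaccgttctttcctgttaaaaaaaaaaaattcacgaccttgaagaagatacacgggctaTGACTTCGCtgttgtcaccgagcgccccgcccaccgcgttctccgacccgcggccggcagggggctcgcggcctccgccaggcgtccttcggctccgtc
GCLM: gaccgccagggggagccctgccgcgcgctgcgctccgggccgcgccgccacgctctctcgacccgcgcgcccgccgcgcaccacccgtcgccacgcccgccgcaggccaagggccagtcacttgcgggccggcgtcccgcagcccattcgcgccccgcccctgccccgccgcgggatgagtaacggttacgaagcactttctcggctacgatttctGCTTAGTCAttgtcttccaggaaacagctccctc
TGACNNNGC is a loose motif, present on either strand in 1583 of 10451 promoters (15.1%), in 9 of 30 on the NRF2 list (30.0%), in 89 of 488 in the late rise class (18.2%) and in 99 of 770 in the late fall class (12.9%). It was not particular to the NRF2 list. It stood in 7 of 22 promoters on the heat shock list (31.8%), 11 of 38 on the ATF4 list (28.9%) and 3 of 25 on the mitosis list (12%). It can overlap AP-1 sites, as in HSPA6. SRXN1, an NRF2 target that rose more than TXNRD1 and GCLM, held no match in the 250 bases before its start.

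ATF4 targets did not share one time course. Of 43 listed ATF4 targets and integrated stress response genes, 39 were called higher and 3 lower, with a median of 1.01, and the list had members in the building (4), held (1), peak and fade (2) and late rise (12) classes. DDIT3, which encodes the pro-apoptotic factor CHOP, had risen by 3.10 ± 0.04 in the first hour and added 0.58 ± 0.04, from 405 and 404 to 618 and 592 CPM. ATF4 itself went from 562 and 579 to 816 and 798 CPM, and ATF5, a related factor, fell from 40.6 and 39.7 to 26.4 and 24.7 CPM. DDIT4, an inhibitor of mTORC1 also known as REDD1, peaked early: it stood at 607 and 579.7 CPM at 1 h and 251 and 270.0 CPM at 7 h, against 24.7 to 41.4 CPM in regular culture. Its later change was -1.19 ± 0.05 (adjusted p = 6.3e-14, limma), after 4.51 ± 0.05 in the first hour, so the level at 7 h lay below that at 1 h and above that of regular culture. CHAC1, an enzyme that degrades glutathione, also fell after 1 h, from 134 and 133 to 65.2 and 67.3 CPM, but it fell in regular culture too, from 13.1 and 14.4 to 3.01 and 2.98 CPM, where DDIT4 rose.

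The amino acid response element, which binds ATF4 with C/EBP partners, is shown in CHAC1 because that gene faded while most of its list rose. The run is chr15:40953221-40953470, plus strand (RefSeq, GRCh38.p14), and capitals mark the match, read on the opposite strand.
CHAC1: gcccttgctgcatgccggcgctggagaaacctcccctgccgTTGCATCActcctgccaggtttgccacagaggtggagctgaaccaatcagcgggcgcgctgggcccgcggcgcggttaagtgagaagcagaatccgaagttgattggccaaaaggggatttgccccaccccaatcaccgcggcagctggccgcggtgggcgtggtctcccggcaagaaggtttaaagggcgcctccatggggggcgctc
A match to TGATGNAA was found in 179 of 10451 promoters (1.71%), in 11 of 38 on the ATF4 list (28.9%), in 2 of 39 in the building class (5.13%) and in 1 of 13 in the peak and fade class (7.69%), which is CHAC1 itself.

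Most immediate early genes fell less in treated cells than in regular culture, or rose. FOS, an AP-1 subunit, stood at 548 and 472 CPM in treated cells at 1 h and 244 and 225 CPM at 7 h, a later change of -1.12 ± 0.10. In regular culture it went from 46.9 and 46.7 to 2.40 and 3.38 CPM over the same hours, a change of -4.01 ± 0.10, so the fall in treated cells was the smaller by 2.89 ± 0.14 (adjusted p = 3.6e-13 for the difference, limma). EGR1, a zinc finger factor, had the largest fall of the peak and fade class, from 3538 and 3259.6 to 482 and 478 CPM (-2.82 ± 0.03), and fell further in regular culture (-4.93 ± 0.03, difference 2.11 ± 0.05). EGR2 fell by 2.21 ± 0.05 in treated cells, from 258 and 237 to 53.1 and 53.3 CPM. NR4A3, an orphan nuclear receptor, showed no called change in treated cells, at 34.4 and 35.8 CPM and then 32.3 and 34.5 CPM (-0.07 ± 0.08, adjusted p = 0.44, limma), while it fell from 159 and 135 to 0.939 and 0.794 CPM in regular culture. It was called lower, by 0.44, after scaling to the total. ARC, a synaptic immediate early gene, rose from 9.52 and 8.44 to 49.4 and 45.6 CPM in treated cells and fell from 73.8 and 67.7 to 1.13 and 1.21 CPM in regular culture.

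Over the 43 immediate early genes, 12 were called higher at 7 h in treated cells and 26 lower, against 36.9% and 40.7% of all genes, with a median of -0.26. In regular culture 40 of the 43 were called lower, against 30.8% of all genes, and 3 higher, against 30.7%, with a median of -2.70. The difference of the 2 time changes was called higher in treated cells for 39 genes, against 36.7% of all genes, and lower for 3, against 37% of all genes. The KLF factors, zinc finger proteins many of which are induced early, had 3 of 13 called higher and 6 lower, against 36.9% and 40.7% of all genes. KLF9 fell from 232 and 234 to 48.9 and 48.5 CPM and KLF5 rose from 45.1 and 43.7 to 91.8 and 98.8 CPM.

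Other genes that peaked and faded came from outside the stress lists. LINC00673, a long non-coding RNA, went from 274 and 279 to 108 and 102 CPM, just below all libraries of regular culture (119 to 124 CPM). The interferon-induced gene IFIT2 went from 5.57 and 5.45 to 2.19 and 1.95 CPM, and RBM43, an RNA-binding protein gene, from 7.17 and 7.93 to 3.14 and 2.94 CPM. In regular culture RBM43 rose, from 3.19 and 3.27 to 7.14 and 7.57 CPM. HOXB3, a homeobox gene, fell from 13.4 and 11.2 to 5.25 and 5.23 CPM while regular culture rose to 18.4 and 18.4 CPM. Genes that held included KCNE4, a potassium channel subunit, at 20.4 and 19.6 and then 30.1 and 31.9 CPM, and the transcription factor gene MYCN, at 8.22 and 8.69 and then 6.45 and 6.03 CPM, whose later change of -0.43 ± 0.16 (adjusted p = 0.0164, limma) was not called without treated 1 h library A (0.0511), treated 1 h library B (0.101) or treated 7 h library B (0.0769). PCGF2, a Polycomb protein gene, stood apart within its own pair at 1 h, at 4.43 and 9.10 CPM, and at 5.46 and 3.32 CPM at 7 h so that the times overlapped; its later change of -0.57 ± 0.31 was not called (adjusted p = 0.106, limma), and was called without treated 1 h library A (-1.09, adjusted p = 0.0141) or treated 7 h library A (-0.93, 0.0352). SLC7A11-AS1 had risen by 3.27 ± 0.21 by 1 h and showed no called change later (0.19 ± 0.21, and -0.18 if scaled to the total); the libraries do not mark strand, so its reads cannot be told apart from those of genes it overlaps.

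Of 21 listed NF-kB and inflammatory genes, 19 were called lower after the first hour of treatment, against 20.7% of all genes. That is a comparison with regular culture at 1 h, a level that itself fell later. In regular culture 20 of the 21 were called lower from 1 h to 7 h, against 30.8% of all genes, with a median of -1.44. Both counts use the regular culture libraries at 1 h. CXCL8, the neutrophil chemokine interleukin-8, stood at 470.0 and 469.8 CPM in regular culture at 1 h, at 8.58 and 10.2 CPM in treated cells at 1 h and at 50.7 and 57.1 CPM at 7 h. The later rise was 2.52 ± 0.07, and regular culture fell by 5.11 ± 0.07 over the same time to 14.3 and 12.9 CPM. IL11, a cytokine of the interleukin-6 family, rose from 26.1 and 24.5 to 124 and 123 CPM. Regular culture stood at 139 and 142 CPM at 1 h and at 63.3 and 61.6 CPM at 7 h, so the treated level at 7 h lay between these. The rebound class, whose members were chosen for a later rise, also held genes outside that list. F3, tissue factor and a listed YAP/TAZ target, which starts coagulation, rose 3.45-fold from 8.65 and 7.57 CPM. Its level at 7 h lay between those of regular culture at 1 h (69.5 and 63.9 CPM) and 7 h (10.9 and 9.75 CPM). IL1RL1, the interleukin-33 receptor, rose 8.06-fold from 1.19 and 1.63 CPM, and stayed below regular culture at 7 h (16.7 and 14.9 CPM). MMP25, a membrane-type metalloproteinase, rose from 1.23 and 1.36 to 6.07 and 7.76 CPM, and TRIML2, a tripartite motif-like protein gene, from 0.685 and 0.708 to 13.9 and 14 CPM, past every library of regular culture (1.95 to 2.78 CPM). Over the NF-kB and inflammatory list, 10 were called higher and 4 lower from 1 h to 7 h, against 36.9% and 40.7% of all genes, and 7 higher and 9 lower if scaled to the total, which turns the median from 0.29 to -0.08. PTGS2, cyclooxygenase 2, rose from 62.6 and 62.7 to 189 and 197 CPM while regular culture fell from 91.8 and 74.5 to 3.09 and 3.07 CPM. CCL2, a monocyte chemokine, fell on, from 38.5 and 35.6 to 21 and 19.3 CPM.

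Of 26 listed YAP/TAZ targets, 13 were called higher from 1 h to 7 h and 13 lower, near the 36.9% and 40.7% of all genes on the deposited scale. Scaled to the total, 9 were higher and 16 lower. In the first hour 20 of the 26 had been called lower and 0 higher, against 20.7% and 17.7% of all genes. Regular culture had 16 called lower from 1 h to 7 h and 10 higher, against 30.8% and 30.7% of all genes. ANKRD1, a muscle ankyrin repeat protein and a standard YAP/TAZ reporter gene, had 8 reads in all at 1 h and 369 at 7 h, a read ratio of 68.1 (34.2 to 159, counting error only), from 0.114 and 0.0817 to 6.45 and 6.99 CPM, which lay below the 9.21 and 9.02 CPM of regular culture at 1 h and above its 0.480 and 0.684 CPM at 7 h. CCN1, a matricellular protein gene also known as CYR61, fell from 180.2 and 158 to 75.6 and 73.9 CPM. Its first-hour change was -3.13 ± 0.04 against regular culture, which itself fell from 1495 and 1466 CPM at 1 h to 85.3 and 83.3 CPM at 7 h. CCN2, connective tissue growth factor, showed a first-hour change of -4.49 ± 0.03 and a later one of -0.59 ± 0.03, to 38.7 and 38.5 CPM. Regular culture fell from 1330 and 1282 CPM at 1 h to 90.2 and 87.8 CPM at 7 h. AMOTL2, an angiomotin that restrains YAP, fell from 118 and 109 to 41 and 40.9 CPM, while LATS2, a Hippo kinase, rose from 34.6 and 31.5 to 78.4 and 77.2 CPM. ARHGEF17, a guanine nucleotide exchange factor, fell from 65.2 and 63.1 to 28.3 and 27.2 CPM. WWTR1, whose reads may include those of the TAZ(4SA) construct if it holds the same sequence, went from 391 and 385 to 298 and 309 CPM, a change of -0.35 ± 0.03 (adjusted p = 1.18e-08, limma).

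Continued fall, in which the transcript was already at least 2-fold below regular culture at 1 h, held 17 genes, CCN1 and AMOTL2 among them. LIF, a cytokine of the interleukin-6 family, fell from 664 and 713 to 322 and 342 CPM in treated cells. Regular culture stood at 5899 and 5918 CPM at 1 h and at 503 and 453 CPM at 7 h. GBP1, a guanylate-binding protein gene, fell from 10.3 and 10.5 to 3.57 and 4.31 CPM, and TLNRD1, an actin-bundling protein gene, from 22.4 and 17.7 to 5.59 and 6.35 CPM. B3GALT2, a galactosyltransferase gene, fell from 1.62 and 1.88 to 0.602 and 0.543 CPM. EGR4 had 114 and 26 reads in all, a ratio of 0.337 (0.211 to 0.519), and stood lower still in regular culture at 7 h, at 0.0417 and 0.0662 CPM.

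Of the 1135 genes that fell at least 2-fold, 963 had moved by no more than 0.5 at 1 h. Mitotic genes stood among them: 28 of 28 were called lower at 7 h, 23 at least 2-fold, with a median of -1.46 against 0.22 in regular culture, where 18 were called higher and 3 lower. The difference of the time changes was called lower for 28 of 28, against 37% of all genes. CCNF, cyclin F, fell from 86.8 and 82.1 to 13.3 and 12 CPM (-2.74 ± 0.05) while regular culture rose from 62.3 and 63.4 to 146 and 142 CPM. CCNB1, the mitotic cyclin B1, fell from 382 and 397 to 97.9 and 95.6 CPM and KIF20A, a kinesin of the central spindle, from 388 and 404 to 87.3 and 84 CPM. PLK1, polo-like kinase 1, picked out after its values were seen, fell from 236 and 235 to 83.1 and 80.5 CPM.

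The cell cycle homology region TTTGAA, a letter pattern of promoters active in G2 and mitosis, is shown in CCNF and PLK1. It was added to the search after the mitotic falls were seen. The runs are chr16:2429197-2429446 and chr16:23678639-23678888, both plus strand (RefSeq, GRCh38.p14), and capitals mark the match.
CCNF: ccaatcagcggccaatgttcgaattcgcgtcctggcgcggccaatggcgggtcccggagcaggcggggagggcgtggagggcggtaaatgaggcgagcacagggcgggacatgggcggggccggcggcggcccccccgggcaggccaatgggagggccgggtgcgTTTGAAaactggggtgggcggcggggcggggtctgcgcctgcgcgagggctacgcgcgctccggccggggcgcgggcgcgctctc
PLK1: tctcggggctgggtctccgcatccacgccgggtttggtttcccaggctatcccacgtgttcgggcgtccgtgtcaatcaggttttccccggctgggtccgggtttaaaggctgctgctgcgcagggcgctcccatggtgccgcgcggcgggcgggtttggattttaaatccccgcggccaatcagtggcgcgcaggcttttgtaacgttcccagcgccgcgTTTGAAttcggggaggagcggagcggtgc
Matches stood in 1028 of 10451 promoters (9.84%), in 15 of 25 on the mitosis list, in 110 of 770 in the late fall class (14.3%) and in 44 of 488 in the late rise class (9.02%). CCNB1 and KIF20A held no match in this window.

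DNA replication genes fell less evenly, with 21 of 30 called lower and 8 higher, against 40.7% and 36.9% of all genes, and a median of -0.20. Scaled to the total, 27 were called lower and 1 higher. GINS1, a subunit of the replicative helicase, fell from 63.2 and 64.3 to 24.1 and 24.3 CPM and E2F2, an S phase transcription factor, from 32.8 and 32.2 to 6.33 and 5.71 CPM, whereas CDC6, a licensing factor, rose from 79.6 and 79.6 to 180.4 and 179.6 CPM. Of 22 p53 targets 7 were called higher and 13 lower, against 36.9% and 40.7% of all genes. MDM2, the ubiquitin ligase that p53 induces, fell from 154 and 148 to 62.7 and 61.1 CPM, and PLK2 from 231 and 225 to 84.6 and 88.9 CPM. GADD45A rose from 82.7 and 77.4 to 166 and 180.2 CPM and TNFRSF10B, the TRAIL receptor DR5, from 107 and 106 to 384 and 393 CPM; both also respond to ATF4 and CHOP in other settings.

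Large late falls were also seen outside the mitosis list. SLC30A2, a zinc transporter, fell 8.43-fold, from 8.10 and 8.74 to 0.818 and 1.18 CPM, and the potassium channel gene KCNA2 8.39-fold, from 11.5 and 12 to 1.42 and 1.37 CPM. KCNJ10, an inward rectifier channel of glia, fell 7.96-fold but fell as well in regular culture, from 17.2 and 15.8 to 2.32 and 2.71 CPM; the difference of the 2 changes was -0.27 ± 0.17 and not called (adjusted p = 0.149, limma), though it was called at -0.65 if scaled to the total. ARHGEF39, a guanine nucleotide exchange factor, fell from 27.1 and 26.2 to 3.44 and 4.08 CPM, INKA2, an inhibitor of PAK4, from 88.2 and 87.5 to 13.4 and 14.8 CPM, and SLC26A2, a sulfate transporter, from 575 and 562 to 95.1 and 91.1 CPM. PLPP6, a lipid phosphatase gene, fell from 9.34 and 8.58 CPM to 0.990 and 2.11 CPM, with more than a 2-fold gap between the 7 h libraries. HES1, a Notch target, fell 4.53-fold.

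Of 476 genes named ZNF with a number, 249 were called higher in the first hour and 40 lower, against 17.7% and 20.7% of all genes. From 1 h to 7 h 112 were called higher and 259 lower, against 36.9% and 40.7% of all genes, 21 and 67 of them at least 2-fold, with a median of -0.30 against -0.03 over all genes. These 2 counts share the treated 1 h libraries, and 1 zinc finger gene of the list was in the peak and fade class. ZNF624 fell from 3.70 and 3.21 to 1.08 and 0.734 CPM and ZNF19 from 2.03 and 2.67 to 0.645 and 0.574 CPM, both below every other group. ZNF92 rose from 33.2 and 30.2 to 165 and 171 CPM and ZNF761 from 16.4 and 16.9 to 75.1 and 74.5 CPM; zinc finger genes of one cluster are similar in sequence, and reads may be split between them.

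Late risers outside the stress lists reached high folds from low levels. MMP10, a stromelysin, had 66 and 680 reads in all, a ratio of 15.2 (11.8 to 19.9). BMP6, a secreted signal of the TGF-beta family, rose from 1.57 and 1.66 to 22.2 and 25 CPM, and MLKL, the pore-forming effector of necroptosis, from 4.91 and 5.12 to 54.9 and 55.5 CPM. NHLH1, a neuronal helix-loop-helix factor, rose from 0.890 and 0.872 to 9.98 and 9.77 CPM. BCL2L15, a BCL2 family gene, rose from 0.502 and 0.436 to 5.68 and 5.65 CPM and AP4B1-AS1, an antisense gene, from 1.03 and 0.844 to 8.61 and 9.29 CPM; without strand, antisense reads cannot be told apart from those of an overlapping gene.

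Genes of protein breakdown and of folding in the ER also rose after the first hour. Of 31 proteasome subunits 30 were called higher and 1 lower, with a median of 0.66 against 0.01 in regular culture. PSMD12, a lid subunit, rose from 115 and 114 to 323 and 326 CPM and PSMD14, the lid deubiquitinase, from 140.0 and 146 to 326 and 334 CPM, while PSMD5, an assembly chaperone rather than a stable subunit, fell from 55.8 and 57 to 29.7 and 28.6 CPM. Of 30 autophagy and lysosome genes 26 were called higher and 3 lower, but 13 and 9 if scaled to the total. SQSTM1, the autophagy receptor p62, rose from 915 and 920.4 to 3354 and 3370.3 CPM, and the ATG8 family genes MAP1LC3B and GABARAPL1 rose 4.88-fold and 4.35-fold. ULK2, a kinase that starts autophagy, fell from 10.4 and 10.9 to 7.32 and 6.80 CPM. Of 27 genes for ER chaperones and the unfolded protein response, 25 were called higher on the deposited scale, and 16 higher and 8 lower if scaled to the total. ERN1, the ER stress sensor IRE1, rose from 11.3 and 12.3 to 82.6 and 86 CPM, DNAJB9, an ER co-chaperone, from 21.5 and 19.5 to 59.4 and 64.9 CPM, and ERO1B, an ER thiol oxidase, from 12.9 and 11.4 to 37.8 and 40.6 CPM.

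**Figure D3:**
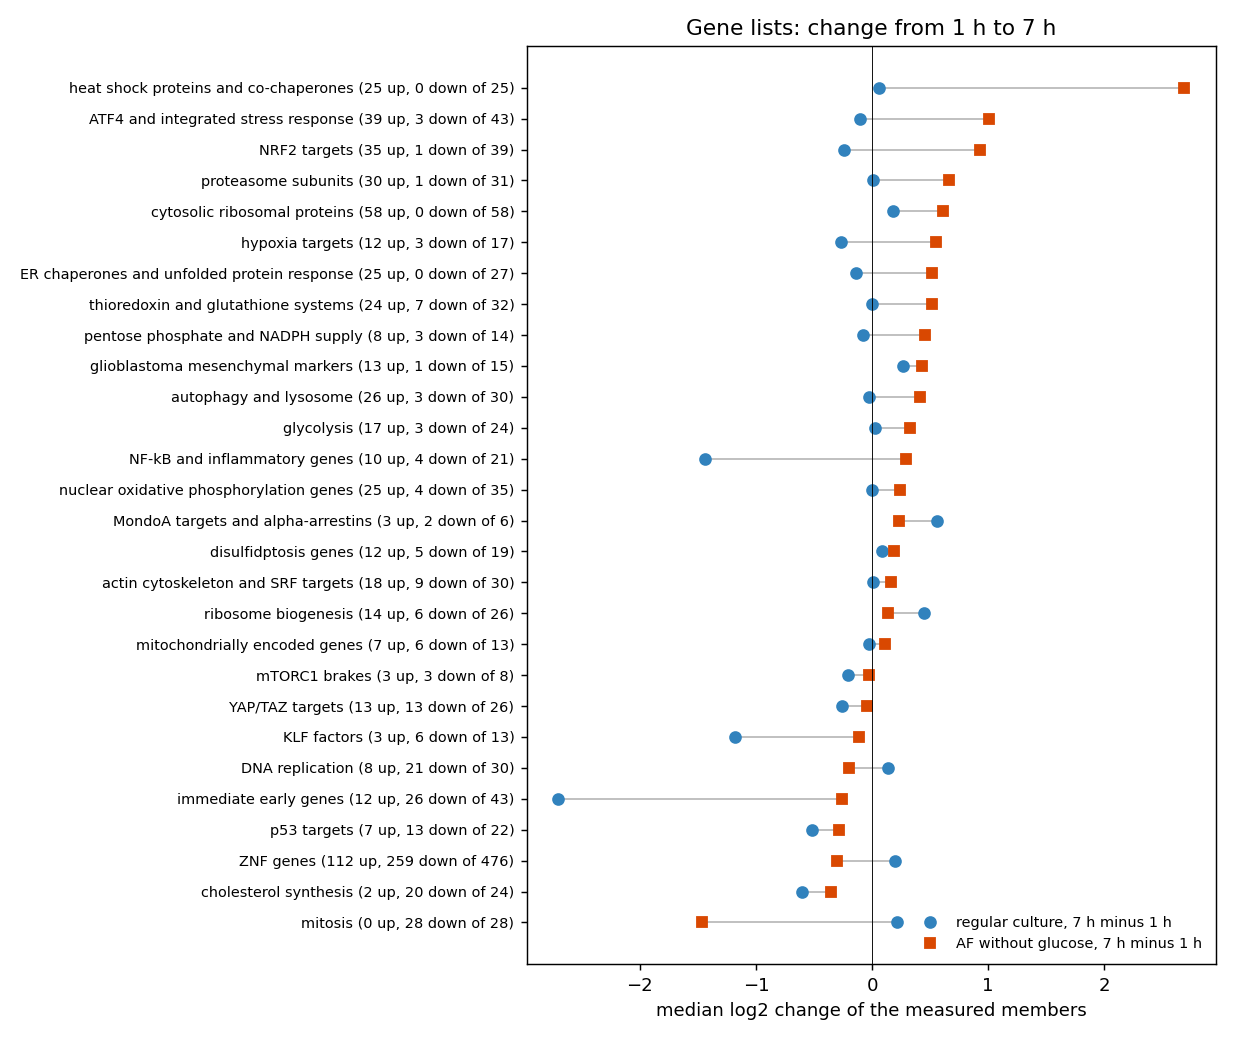
Median log2 change from 1 h to 7 h of the measured members of each gene list in treated cells (orange squares) and in regular culture (blue circles), with the numbers called up and down in treated cells. Heat shock genes lie farthest right in treated cells (median 2.69) and mitosis farthest left (-1.46), and immediate early genes have the lowest median in regular culture (-2.70). Of the lists shown, scaling to the total turns the treated medians of the NF-kB, glycolysis, oxidative phosphorylation, MondoA, disulfidptosis, actin, ribosome biogenesis and mitochondrially encoded lists below 0.

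Among genes of sugar and lipid supply, TXNIP, an alpha-arrestin whose transcription follows glucose through MondoA, fell from 18.5 and 16.5 to 5.29 and 4.98 CPM in treated cells and rose from 23 and 24.1 to 56.7 and 57.1 CPM in regular culture. ARRDC4, another MondoA target, rose from 1.80 and 1.91 to 3.61 and 3.54 CPM, and regular culture went from 1.73 and 1.88 to 3.82 and 3.66 CPM (difference -0.10 ± 0.22, adjusted p = 0.693, limma). Glycolysis genes had 17 of 24 called higher and 3 lower (10 and 11 if scaled to the total), with a median of 0.33 that turns to -0.05 if scaled to the total and is 0.02 after quantile normalization. PFKP, a phosphofructokinase, rose from 175 and 181 to 369 and 364 CPM, and PFKFB2, a fructose-2,6-bisphosphate enzyme, fell from 22.6 and 24.8 to 11.8 and 11.2 CPM. SLC2A3, the glucose transporter GLUT3, rose from 45.5 and 45.9 to 89.3 and 88.8 CPM. GAPDH rose from 5235 and 5411 to 7197 and 7104 CPM (0.43 ± 0.03), but this became 0.05 and not called (adjusted p = 0.0625) if scaled to the total and turned to -1.03 after quantile normalization. Of 17 hypoxia targets 12 were called higher and 3 lower, against 36.9% and 40.7% of all genes. VEGFA rose from 76 and 72.7 to 191 and 195 CPM, NDRG1 rose 2.87-fold, and HILPDA, a lipid droplet protein gene, fell from 6.16 and 6.89 to 1.16 and 0.926 CPM. Cholesterol synthesis had 20 of 24 called lower and 2 higher, with a median of -0.35 against -0.60 in regular culture.

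Ribosomal protein genes moved little but evenly. All 58 listed cytosolic ribosomal protein genes were called higher on the deposited scale, against 36.9% of all genes, by 0.43 to 0.82, with a median of 0.61. Of these, 57 were still called higher when scaled to the total and 54 after quantile normalization. In regular culture 53 of the 58 were also called higher and 1 lower, with a median of 0.18. The difference was called higher in treated cells for all 58, against 36.7% of all genes. RPL9 rose from 133 and 144 to 249 and 239 CPM and RPL34 from 76.1 and 76.9 to 139.6 and 128 CPM, though ribosomal protein genes have many processed pseudogenes that can share reads. Ribosome biogenesis had 14 of 26 called higher and 6 lower, against 36.9% and 40.7% of all genes. Its median was 0.14 against 0.45 in regular culture, and 6 were higher and 16 lower if scaled to the total (median -0.23). NOP58, a snoRNP protein, rose from 127 and 127 to 339.8 and 339 CPM and POLR1C, a subunit shared by RNA polymerases I and III, fell from 15.9 and 16.3 to 9.25 and 9.22 CPM. Nuclear oxidative phosphorylation genes had 25 of 35 called higher and 4 lower (median 0.24), but 3 higher and 20 lower if scaled to the total (median -0.13). On the deposited scale the higher genes included NDUFA10, a complex I subunit (0.53 ± 0.04), and the lower ones SDHA of complex II (-0.39 ± 0.04). The 13 mitochondrially encoded genes divided into 7 higher and 6 lower, against 36.9% and 40.7% of all genes, with a median of 0.11 that turns to -0.26 if scaled to the total and to -0.76 after quantile normalization. ND1, of complex I, went from 707 and 775 to 1157 and 1047 CPM, ATP6, of the ATP synthase, from 1814 and 1856 to 1305 and 1248 CPM, and COX3, of cytochrome oxidase, fell by 0.46 ± 0.03.

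Transcripts of the actin genes, whose proteins form disulfide bonds in disulfidptosis, did not move as one. Of 30 actin cytoskeleton and SRF genes, 18 were called higher and 9 lower, against 36.9% and 40.7% of all genes, with a median of 0.16. Scaled to the total, 3 were higher and 20 lower (median -0.21), and after quantile normalization 8 were higher and 18 lower (median -0.23). In the first hour 24 had been called lower and 1 higher, against 20.7% and 17.7% of all genes. ACTB, beta-actin, fell from 4637 and 4556 to 3575 and 3369 CPM, and SRF, the factor that drives many actin genes, from 44.5 and 42.8 to 26 and 21.1 CPM. CNN1, calponin, rose from 1.99 and 1.63 to 7.83 and 5.78 CPM and FHL2, an SRF co-factor, from 137 and 139 to 352 and 352 CPM. Of 19 genes tied to disulfidptosis 12 were called higher and 5 lower, against 36.9% and 40.7% of all genes, with a median of 0.19; scaled to the total, 4 were called higher and 11 lower, with a median of -0.18. SLC7A11 and SLC3A2 were the 2 that rose at least 2-fold, and MYH10, a non-muscle myosin heavy chain on the actin list, fell from 370.4 and 375 to 197 and 189 CPM. CDC42EP3, a CDC42 effector that binds septins, fell from 284 and 271 to 163 and 166 CPM.

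Few markers of other cell types were listed, and their levels differed. OLIG2, a factor of the oligodendrocyte lineage, stood at 16.8 and 16.2 CPM at 1 h and 16 and 16.4 CPM at 7 h in treated cells. The summed level of the 3 listed neuron markers was 51.3 and 53.3 CPM at 1 h and 126.9 and 132.2 CPM at 7 h in treated cells, carried by RBFOX3 and by SYT1, a synaptic vesicle protein gene, which rose from 35.3 and 33.4 to 85.2 and 86.9 CPM. CD68 was the 1 immune marker listed, at 12.1 and 12.3 CPM and then 21.1 and 22.1 CPM, and PTPRC, CD14, AIF1 and CD3E were not among the listed genes. A list of glioblastoma mesenchymal markers longer than the 8 above had 13 of 15 measured members called higher and 1 lower. If scaled to the total, 7 were higher and 3 lower. After quantile normalization 7 were higher and 7 lower, with a median of 0.03. The part of these markers in the other results was not tested.

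Regular culture also changed between 1 h and 7 h, and the 2 time changes share no library. Over 13028 genes they had a Pearson correlation of -0.05 and a Spearman correlation of -0.07, a description over genes, which are not independent. Of the 930 genes at least 2-fold higher at 7 h in treated cells, 237 were called higher in regular culture and 394 lower, against 30.7% and 30.8% of all genes, and 299 neither. The difference was called higher in treated cells for 892, against 36.7% of all genes, a count that the choice of these genes by their treated change favours. Of the 1135 at least 2-fold lower, 418 were called higher in regular culture, 301 lower, 93 of these at least 2-fold, and the difference was called lower for 1031, against 37% of all genes, a count favoured in the same way. The largest positive differences among the genes named by rule were those of ANKRD1 (9.38 ± 0.32), ARC (8.25 ± 0.12), CXCL8 (7.62 ± 0.10) and NR4A3 (7.25 ± 0.12), all genes that fell in regular culture. The largest negative differences were those of TMEM177, a mitochondrial membrane protein gene (-4.04 ± 0.14), CCNF (-3.93 ± 0.07), HILPDA (-3.85 ± 0.19) and HOXB-AS3, an antisense gene of the HOXB cluster (-3.66 ± 0.24), all genes that rose in regular culture and fell in treated cells. TMEM177 went from 10.3 and 10.0 to 1.64 and 1.72 CPM in treated cells and from 6.02 and 5.71 to 16.1 and 16.7 CPM in regular culture. Among the genes named here that were called from 1 h to 7 h in treated cells, the largest adjusted p was that of MYCN.

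**Figure D4:**
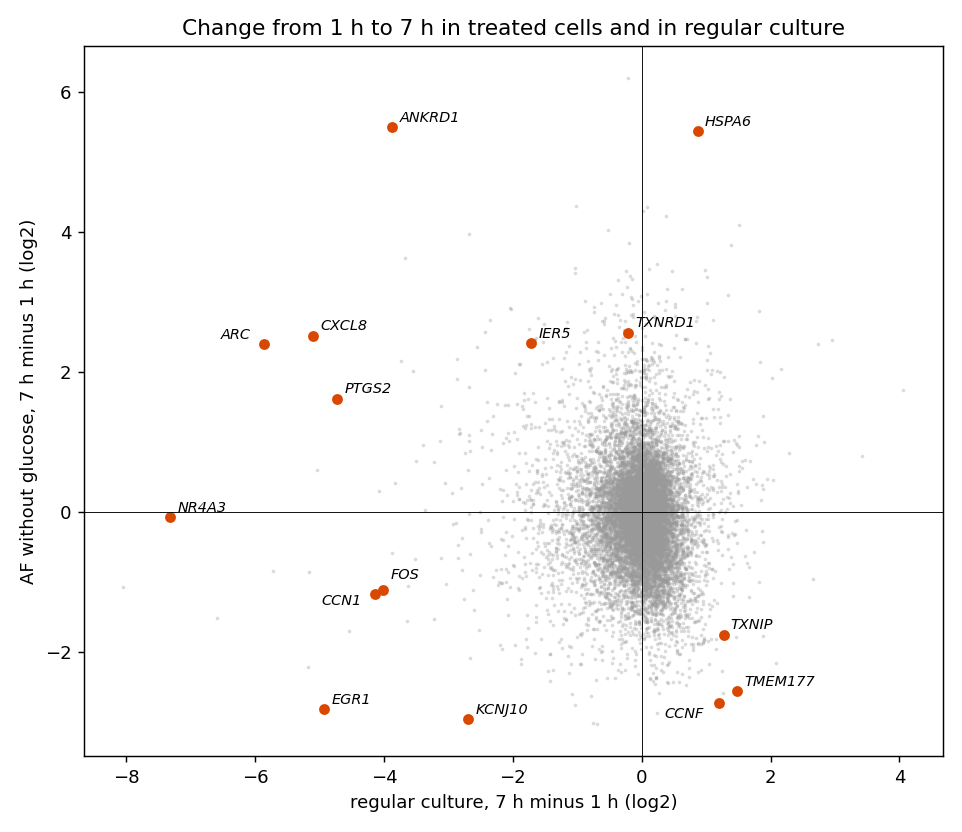
Each point is 1 of 13028 genes, placed by its change from 1 h to 7 h in regular culture (log2, x axis) and in AF without glucose (log2, y axis), with 15 genes marked in orange. PTGS2, ARC and CXCL8 fell in regular culture and rose in treated cells, CCNF, TMEM177 and TXNIP did the reverse, and KCNJ10, EGR1, FOS and CCN1 fell in both.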

How the data were processed

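RNA of LN229-TAZ(4SA) cells was amplified and sequenced with a kit that does not mark strand, per the labels' protocols, in 8 libraries of 4 groups. Reads were aligned with HISAT2 to GRCh38 and normalized with edgeR by the authors, per the submitters' processing notes; no label or header names their versions, the counting tool or the low-count filter. Deposited values are log2 CPM of scaled library sizes plus a small prior (0.0522 CPM, read from the values), and every value gave a whole number of reads within 0.1 read. Total reads per library set the precision of low genes, and read-ratio intervals (95%, exact) cover counting error only.

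Changes came from limma 3.58.1 (R 4.3.3) with a mean-variance trend, fitted to group means over all 8 libraries (4 residual degrees of freedom), for genes that reached 1 CPM in 2 or more libraries; p-values were Benjamini-Hochberg adjusted over 13028 genes. Fold changes on this log scale understate those of low genes. The procedure was tested on simulated data. Of 13036 genes, 12970 matched RefSeq, and 10451 tested genes had a promoter. Members, gene lists and time-course classes were chosen with earlier results of these data known. Named genes were a preset group of 14, the 10 largest rises and falls that reached 5 CPM, up to 6 per class, 3 per direction per list and the 4 largest differences in time change per direction. HSPA7, HSPH1, HSPA8, GDF15 and PLK1 were added after their values were seen, and some genes that the rule allows are counted but not named. Alternatives were other scalings, filters and pseudocounts, voom weights on recovered reads, treated libraries alone, a test against 1.5-fold, other class steps and leaving out each library.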

Additional observations from a re-analysis of the deposited data

Results flagged for a closer look

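For 28 of the genes described above the change from 1 h to 7 h differed between treated cells and regular culture by limma's test of the difference itself (Benjamini-Hochberg, over all genes). The differences, treated minus regular, are on the log2 scale.

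Among stress genes the difference was 4.58 for HSPA6, 4.27 for ZFAND2A, 3.57 for HMOX1, 2.77 for TXNRD1, 3.35 for TRIB3, 2.82 for SESN2, 1.24 for DDIT3, 2.58 for PPP1R3C and 4.00 for GABARAPL1. Of these, PPP1R3C also rose in regular culture, by 1.51, while TRIB3, SESN2, DDIT3 and GABARAPL1 fell there. CHAC1 fell in both, and less in treated cells (1.17). DDIT4 fell in treated cells and rose in regular culture by 0.60, a difference of -1.79.

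Differences were also positive among immediate early, inflammatory and YAP/TAZ target genes that fell in regular culture: 9.38 for ANKRD1, 8.25 for ARC, 7.62 for CXCL8, 7.25 for NR4A3, 6.35 for PTGS2 and 4.13 for IER5. FOS (2.89), EGR1 (2.11), CCN1 (2.96) and CCN2 (3.29) fell in both cultures, and by less in treated cells.

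Differences were negative for TMEM177 (-4.04), CCNF (-3.93), HILPDA (-3.85), HOXB-AS3 (-3.66) and TXNIP (-3.03), which rose in regular culture and fell in treated cells. SLC26A2 (-1.53) and KLF9 (-0.87) fell in both, and further in treated cells.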

How the results depend on the processing

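No paired analysis was possible because the columns carry no replicate numbers. Over 140 named genes and the alternatives computed for single genes, which leave out the test against 1.5-fold, 2500 of 2515 gene results kept their direction and their side of the threshold. The reversals were SLC7A11-AS1 scaled to the total (-0.18, not called) and GAPDH after quantile normalization (-1.03); the cause was not tested. MYCN was not called after quantile normalization (-0.26) nor without 3 of the treated libraries, and PCGF2 was called with treated libraries alone (-0.57), with voom weights (-0.58), scaled to the total (-0.94) and without 2 of the treated libraries.

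Scaled to the total of the listed genes, which lowers the median gene, 2248 genes were called higher and 8565 lower, and 497 and 2456 of them at least 2-fold. Rises then numbered 16 in the ER list, 13 in autophagy, 10 in glycolysis, 3 in oxidative phosphorylation, 1 of the mitochondrially encoded genes, 3 in actin, 4 in disulfidptosis, 6 in ribosome biogenesis and 7 of the mesenchymal markers, with 10 KLF falls. The classes held 36 peak and fade, 301 late rise, 2116 late fall, 47 rebound and 30 continued fall genes. Quantile normalization left 8 rises in glycolysis, 1 mitochondrially encoded, 8 in actin and 7 mesenchymal. A filter at 5 CPM, which tests fewer genes, left 40 held, 10 peak and fade and 50 rebound genes, and a pseudocount of 0.5 CPM left 12 peak and fade and 10 continued fall.

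A test against 1.5-fold called 3129 genes, 1390 higher and 1739 lower. Steps of 1.5-fold gave 154 building, 177 held, 117 peak and fade, 1574 late rise, 2353 late fall, 213 rebound and 99 continued fall genes, and steps of 4-fold gave 14, 22, 1, 102, 73, 16 and 0. Leaving out 1 library at a time gave 9364 to 10127 called genes and 18 to 27 peak and fade genes, and the other counts of genes, lists and classes also stayed within 1.5 times. Depth limits genes such as ANKRD1, with 8 reads in all at 1 h.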
